A study of Mus musculus with 22 samples.

Results

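Skipped exons of at most 60 bases were described in 6 cell types sorted from the mouse colon crypt. Events of 5 rMATS tables, each of which sets a cell type against stem cells, were joined by chromosome, strand and the coordinates of the exon and both its neighbours. Of the 10801 events so obtained, 1369 had an exon of at most 60 bases, and these stand for 1278 of 10219 exons, in 1081 genes. The exon was no longer than 27 bases, the size usually called a microexon, in 142 events. Short events numbered 726 of 4872 in the AbsPro table, 866 of 6150 in the SecPDG table, 937 of 6641 in the Tuft table, 834 of 5924 in the Enterocyte table and 284 of 1984 in the EEC table. All 5 tables held 263 of the short events, and 518 stood in a single table.

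The cells came from untreated wild type male mice of the C57BL/6N strain at 5 to 7 weeks of age. Live Epcam+ cells without Cd31 and Cd45 were sorted by Cd44, Cd24 and Ckit into stem cells (Stem, 3 libraries), absorptive progenitors (AbsPro, 3), a mixed gate of secretory progenitors, deep crypt secretory cells and goblet cells (SecPDG, 4), tuft cells (Tuft, 5), enterocytes (Enterocyte, 5) and enteroendocrine cells (EEC, 2). By the study's methods a Stem or AbsPro library came from a single mouse and the others from pooled mice. The libraries were amplified from low input without molecular identifiers, so that the p-values below measure the spread between these libraries. All 5 comparisons use the same 3 Stem libraries. In bulk samples fewer cells of a type and less RNA per cell cannot be told apart, which holds for every gene level given here.

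An exon is joined to its neighbours when the spliceosome recognises the splice sites on both sides at once, and a very short exon leaves little room for that and for the enhancer sequences that most exons carry. Many microexons therefore depend on dedicated RNA-binding proteins. Srrm4 (nSR100) and Rbfox proteins favour their inclusion in neurons, Ptbp1 represses many of them outside the nervous system, and Mbnl, Celf and Esrp proteins set exon choice in muscle and epithelium. An exon whose length is a multiple of 3 keeps the reading frame whether it is included or skipped, and the proteins then differ by a few residues.

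The sequences below belong to the short exons whose library values are described most closely in what follows. The exon is in capitals and 24 bases of the neighbouring exons, as joined in the spliced transcript, stand on each side in lower case, 5′ to 3′. They were read from GENCODE M21 transcripts on GRCm38, which is the same assembly as mm10, and all lie in coding sequence. The Papss2 exon is the shortest that stood apart from Stem. The exons of Sptan1 and Ctnnd1 are microexons known from other tissues. The Mbnl1 and Mbnl2 exons belong to the same position of paralogous genes and share 46 of 54 bases (85.2%).
Papss2, chr19:32646329-32646343, plus strand: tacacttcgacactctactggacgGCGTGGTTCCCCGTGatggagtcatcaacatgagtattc
Sptan1, chr2:30014158-30014172, plus strand: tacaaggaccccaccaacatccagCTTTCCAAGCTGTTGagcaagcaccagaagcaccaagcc
Trim26, chr17:36854284-36854301, plus strand: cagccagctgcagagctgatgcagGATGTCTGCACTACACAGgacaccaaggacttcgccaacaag
Ctnnd1, chr2:84612532-84612549, minus strand: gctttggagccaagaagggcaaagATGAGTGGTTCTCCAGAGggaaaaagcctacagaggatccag
Blzf1, chr1:164303904-164303924, minus strand: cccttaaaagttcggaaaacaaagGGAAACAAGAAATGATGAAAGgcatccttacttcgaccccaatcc
Uggt1, chr1:36176776-36176799, minus strand: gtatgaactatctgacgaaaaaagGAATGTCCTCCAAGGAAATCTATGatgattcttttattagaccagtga
Ctage5, chr12:59146336-59146362, plus strand: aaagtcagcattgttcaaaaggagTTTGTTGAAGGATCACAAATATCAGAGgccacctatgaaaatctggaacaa
Sec31a, chr5:100369596-100369634, minus strand: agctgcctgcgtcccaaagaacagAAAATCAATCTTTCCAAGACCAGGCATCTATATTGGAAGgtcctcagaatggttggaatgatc
Arnt, chr3:95466793-95466837, plus strand: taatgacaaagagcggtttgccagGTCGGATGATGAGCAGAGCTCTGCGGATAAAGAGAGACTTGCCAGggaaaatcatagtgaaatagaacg
Mbnl1, chr3:60614683-60614736, plus strand: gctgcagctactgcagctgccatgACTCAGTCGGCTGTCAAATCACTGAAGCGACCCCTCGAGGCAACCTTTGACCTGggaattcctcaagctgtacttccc
Mbnl2, chr14:120395712-120395765, plus strand: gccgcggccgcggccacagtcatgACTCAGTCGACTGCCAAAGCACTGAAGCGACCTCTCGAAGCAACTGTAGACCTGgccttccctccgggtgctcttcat
Dync1i2, chr2:71233649-71233708, plus strand: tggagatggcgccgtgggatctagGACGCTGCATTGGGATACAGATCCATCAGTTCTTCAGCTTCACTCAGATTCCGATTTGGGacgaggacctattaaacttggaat

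Most short exons lay within coding sequence. Of the 1278 short exons, 1267 (99.1%) matched an annotated exon, and 1154 of these (91.1%) were coding. A further 83 were in 5′ UTRs, 3 in 3′ UTRs, 16 in transcripts with no coding sequence and 11 only in transcripts marked for nonsense-mediated decay. Their lengths ran from 12 to 60 bases, with a median of 47 against 120 for the longer exons. The length was a multiple of 3 in 653 short exons (51.1%), against 3649 of 8941 longer exons (40.8%). In coding sequence alone, where such a length keeps the frame, it was so in 603 of 1154 short exons (52.3%). For longer coding exons it was 3438 of 8269 (41.6%). Among the 135 exons of at most 27 bases, coding or not, the share was 71.1%, so that such lengths were most frequent in the shortest class. The median GC content was 46.7% in exons of at most 27 bases, 47.5% in those of 28 to 60 and 49.7% in longer ones. The last base of the exon was G in 83.5%, 76.5% and 78.6% of these classes.

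The inclusion level of an event in a library is the count of reads that include the exon divided by its effective length, as a share of the sum of this and the skipping count divided by its own length. Reads on the exon body count as inclusion here. A library entered the means and ranges of an event, and is called usable, when it held at least 10 counts. The tests below also took in the other libraries of a tested event. Each Stem library held 64421 to 78948 counts on short events. The range was 59959 to 82851 for AbsPro libraries, 52574 to 71318 for SecPDG, 27734 to 98395 for Tuft and 17800 to 44714 for Enterocyte, and the EEC libraries held 10506 and 52773. The median short event held 0 to 36 counts in a library. On the gene level, 4122122 to 22462518 reads fell on genes per library. Reads that HTSeq assigned to no gene were 40.9% to 49.4% in Stem, AbsPro and SecPDG, 43.4% to 68.0% in Tuft, 66.8% to 83.1% in Enterocyte and 64.5% to 89.7% in EEC. Reads in introns and reads between genes were not told apart in these shares. The summed level of 1107 olfactory receptor genes, which colon epithelium is not known to use, was 5.92 to 117 CPM in Stem, AbsPro and SecPDG, 132 to 1120 in Tuft, 592 to 3020 in Enterocyte and 503 to 5550 in EEC. The summed markers of stem, tuft and enteroendocrine cells were each highest in the cell type they name, while the secretory markers (Atoh1, Spdef, Dll1 and Reg4) also reached 48200 to 149000 normalized counts in Tuft against 128000 to 251000 in SecPDG, and the absorptive markers (Car1, Car4, Slc26a3 and Aqp8) 4040 to 88000 in EEC. Of markers from outside the epithelium, the immune list summed to 1250 to 3160 in Tuft against 293 to 851 elsewhere, and the stromal list to 2240 to 2830 and the endothelial list to 780 to 1140 in EEC, above the other cell types. The members did not all follow these sums. In the second EEC library Pecam1 (733) and Vim (1960) made up most of them, while Cdh5 (4.85), Kdr (42.5), Col1a1 (31.5) and Col1a2 (7.28) lay below every Enterocyte library.

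Short exons were more often skipped than long ones in each of the 6 cell types. In Stem, 528 short events had at least 2 libraries with 10 counts. Of these, 11.6% had a mean inclusion below 10%, 33.7% lay between 10% and 90% and 54.7% above 90%. Of 3473 longer events, 3.77% were below 10% and 68.7% above 90%. The shares of short events below 10% were 11.3% in AbsPro, 11.4% in SecPDG, 12% in Tuft, 10.1% in Enterocyte and 8.06% in EEC, against 2.77% to 4.75% of longer events in these 5 cell types. The microexons stood out most. Their median inclusion was 63.5% in Stem over 53 events, 54.9% in AbsPro over 56, 59.6% in SecPDG over 54, 30.5% in Tuft over 68 and 69.6% in Enterocyte over 48, while events of 28 to 60 bases had medians of 93.5% to 97.0% in these 5 cell types. In EEC 7 microexon events could be used, and 5 of them were above 90%. These events overlap between cell types only in part, and the difference between cell types was not tested.

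**Figure D1:**
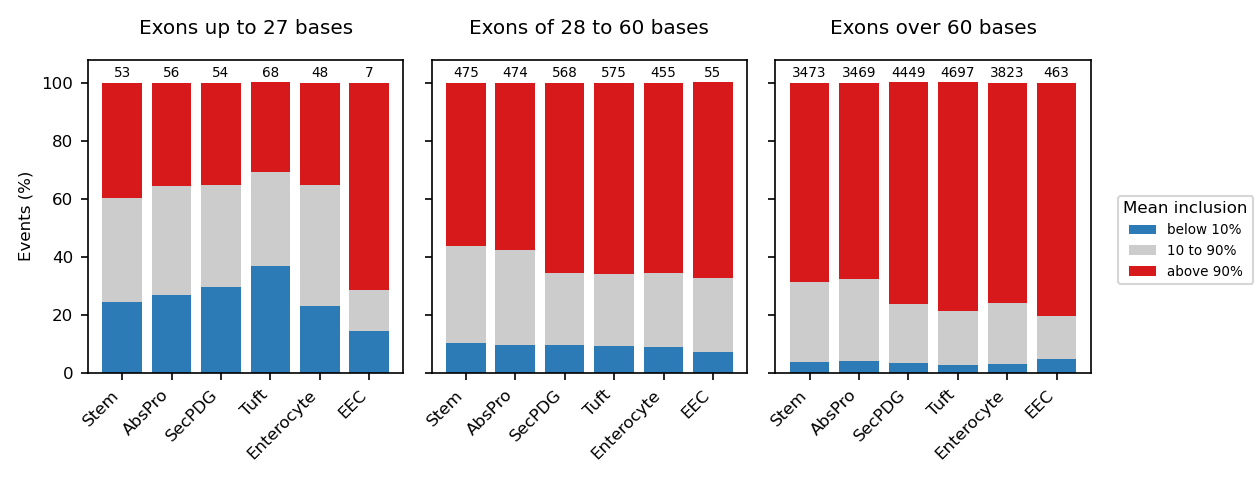
Share of events (y axis, %) with a mean inclusion below 10% (blue), of 10 to 90% (grey) and above 90% (red) in each cell type (x axis), for exons up to 27 bases, of 28 to 60 bases and over 60 bases. The number over each bar is the number of events with at least 2 libraries of 10 counts, and the blue share in the left panel runs from 14.3% in EEC to 36.8% in Tuft against 2.77% to 4.75% in the right panel.

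Exons with a multiple of 3 bases were skipped more often. In Stem, the median inclusion was 84.8% over 302 short events with a multiple of 3 bases and 98.0% over 226 others. A mean between 10% and 90% was found in 39.4% of the former and 26.1% of the latter, and a mean below 10% in 16.6% and 4.87%. The order of the shares below 10% held in the other cell types, with 12.1% to 17.5% of the former and 3.45% to 5.42% of the latter. The order of the medians held in AbsPro, SecPDG, Tuft and Enterocyte, and in EEC both medians were 100%. At the length limit itself there was no step in a single direction. In Stem, 74 events with exons of 58 to 60 bases had a median inclusion of 94.7%, and 70 events with exons of 61 to 63 bases had 97.4%, while in AbsPro these values were 96.7% and 93.0%.

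Libraries of a single cell type differed widely in inclusion. For short events with a mean between 20% and 80%, the median SD between Stem libraries was 32.2 points over 112 events, beside 7.67 points from counting. Amplification and differences between mice also enter the SD, and a mean in this range selects events whose libraries lie at opposite ends, so the pair of values is a description and no test. The SD was 32.4 points in AbsPro, 30.8 in SecPDG, 26.3 in Tuft, 21.7 in Enterocyte and 41.4 in EEC, which is 2.06 to 5.66 times the counting value. Many single values were at the ends of the scale, since 34.1% of the Stem values, 27.8% of those in AbsPro, 25% in SecPDG, 21.6% in Tuft, 14.6% in Enterocyte and 45.8% in EEC were exactly 0% or 100%. Longer exons showed the same spread, with a median SD of 24.2 to 56.9 points.

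**Figure D2:**
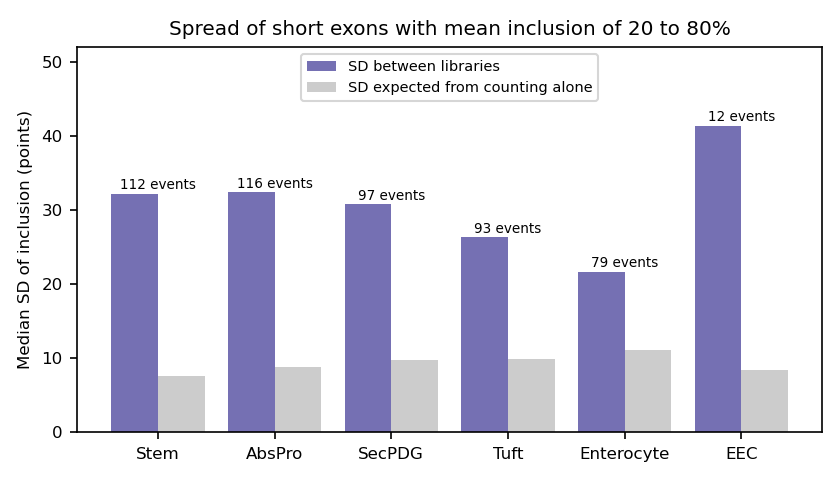
Median SD of the inclusion level between libraries of a cell type (purple, in percentage points) and the SD that the counts alone would give (grey), for short events with a mean inclusion of 20 to 80%. The number of events is over each pair of bars, and the purple bars run from 21.7 to 41.4 points against 7.67 to 11.1 for the grey ones.

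Each cell type was compared with Stem by edgeR's quasi-likelihood test on the paired inclusion and skipping counts of all tested events, at a Benjamini-Hochberg adjusted p under 0.05. Because no short event passed it in any comparison, the events are also described by 2 plain measures with no p. An event is said not to overlap when every usable library of a cell type is above, or below, every usable library of Stem. It is called apart when, besides, the means are at least 25 points from each other.

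In AbsPro, none of 457 short events was called by edgeR (0.0% of all 3641 events tested), and the smallest adjusted p was 0.795. At an unadjusted p under 0.05 there were 0 short events, against 0.0824% of all events. DESeq2, the quasi-binomial regression and limma with and without weights called none. Library levels did not overlap in 29 short events (6.35%), against 3.79% of all events, and 18 were apart by 25 points (3.94%), 8 higher and 10 lower in AbsPro, against 2.14% of all. In Uap1, an enzyme that makes UDP-GlcNAc, an exon of 51 bases stood at 75.4%, 61% and 49.7% in Stem and at 100%, 100% and 88.2% in AbsPro. For Cbs, the first enzyme of transsulfuration, an exon of 42 bases was at 56.8%, 32.3% and 73.7% in Stem and at 10.6%, 0% and 13.9% in AbsPro. That the 3 libraries of a cell type lie on the same side in both genes follows from their choice as apart. In Luc7l2, a partner of the U1 particle, the mean of an exon of 30 bases was 88.6% in Stem and 58.9% in AbsPro.

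In SecPDG, none of 549 short events was called by edgeR (0.0% of all 4629), with a smallest adjusted p of 0.712. An unadjusted p under 0.05 was found for 5 short events, in Blzf1, Exog, Hnrnph2, Smim14 and Zfp384, against 0.734% of all. DESeq2 called 1, an exon of 49 bases in Smim14 (adjusted p = 1.73e-05), whose Stem libraries were all at 100% and whose SecPDG libraries were at 0%, 100%, 0% and 93.0%, so that the groups overlap. Over all events DESeq2 also called 1, and the quasi-binomial regression and both limma fits called none. Levels did not overlap in 25 short events (4.55%), against 2.81% of all events, and 14 were apart (2.55%), 7 in each direction, against 1.66% of all.

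A microexon of Uggt1, the folding sensor of the endoplasmic reticulum, has 24 bases and was at 15.3%, 0% and 44.6% in Stem. In SecPDG it was at 70.2%, 59.2% and 76.3%, with no counts in the fourth library. The means differ by 48.6 points, and the adjusted p of edgeR was 0.712. In Ktn1, a membrane anchor of kinesin, an exon of 38 bases was at 17.1%, 65.2% and 56.7% in Stem and at 95.1%, 85.6% and 91.7% in the 3 usable SecPDG libraries, and the Tuft mean was 92.6%. Its length is not a multiple of 3. Exog, a mitochondrial nuclease, had an exon of 35 bases, found only in transcripts marked for decay, that was at 0% in both usable Stem libraries and at 62.2% and 52.6% in both usable SecPDG libraries (edgeR unadjusted p = 0.0065). Prom1, the membrane protein CD133, had a microexon of 24 bases at 100% in both usable Stem libraries and at 0%, 87.9%, 95.1% and 75.7% in SecPDG.

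In Tuft, none of 551 short events was called by edgeR (0.0% of all 4829), with a smallest adjusted p of 0.62. An unadjusted p under 0.05 was found for 15 short events, against 2.13% of all. DESeq2 and limma without weights called none. The quasi-binomial regression called 2 (Car12 and Med8), against 4 of all events, and weighted limma 1 (Rbm39), against 22 of all. The groups overlap in Med8, at 100%, 0% and 0% in Stem against 0% in all 5 Tuft libraries, 2 of them with under 10 counts. They overlap in Car12 too, at 100% in Stem against 0% and 100% in the 2 usable Tuft libraries. Levels did not overlap in 23 short events (4.17%), against 2.48% of all, and 16 were apart (2.9%), 9 higher and 7 lower in Tuft, against 1.57% of all.

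Trim26, a ubiquitin ligase, had a microexon of 18 bases with no inclusion count among 104 Stem counts, which allows a share of up to 2.88% of the counts. In the 3 usable Tuft libraries its inclusion level was 38.8%, 22% and 21.2%, and a further library with 5 counts was at 0% (edgeR unadjusted p = 0.0197, adjusted p = 0.62). The SecPDG libraries were at 23.5%, 0% and 5.51%, and the Enterocyte libraries with 10 counts at 4.06%, 0% and 0%. Sec31a, an outer subunit of the COPII coat, had an exon of 39 bases at 0%, 7.93% and 33.9% in Stem and at 100%, 72.9%, 76.3% and 45.9% in 4 Tuft libraries. The fourth place of the Tuft list held 6 counts and was left out of the mean, at 26.4%. With a minimum of 20 counts in place of 10, a short event of Sec31a was apart in AbsPro, SecPDG and Enterocyte as well as in Tuft. This was read by gene and not matched to the exon of 39 bases, and a higher minimum leaves fewer libraries that can overlap. With at least 3 libraries of each cell type, Sec31a was apart in Tuft but not in AbsPro, SecPDG or Enterocyte. Mbnl1, a regulator of splicing itself, had an exon of 54 bases at 0%, 28.8% and 56.6% in Stem and at 85.6%, 87.3%, 74.0% and 68.2% in Tuft. The Tuft mean was 78.8% ± 9.22 (SD, n = 4) against 28.5% ± 28.3 (SD, n = 3), with an adjusted p of 0.62 in edgeR.

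In Enterocyte, none of 456 short events was called by edgeR (0.0% of all 4028), with a smallest adjusted p of 0.6. An unadjusted p under 0.05 was found for 10 short events, against 3.13% of all. DESeq2, the quasi-binomial regression and limma without weights called no short event. Limma with weights called 13 of the 456, against 168 of all 4028 events. Of the 13, Blzf1 and Zfp384 were also apart and Dync1i2 did not overlap. Levels did not overlap in 17 short events (3.73%), against 3.05% of all, and 9 were apart (1.97%), 5 higher and 4 lower in Enterocyte, against 1.61% of all. Papss2, which makes the sulfate donor for mucins and other sulfated molecules, had a microexon of 15 bases at 8.06%, 0.911% and 7.32% in Stem. Its Enterocyte libraries were at 42.0%, 44.4%, 38.8% and 28.6%, and a further library with 7 counts was at 0%. The means differ by 33.0 points (edgeR unadjusted p = 0.0689, adjusted p = 0.6).

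Papss2 was also higher in AbsPro than in Stem, and its other values are given because of this. The AbsPro libraries were at 22.4%, 46.5% and 21.3%, on 142 to 362 counts, and did not overlap with Stem. SecPDG was at 0%, 8.57%, 6.63% and 4.08% and Tuft at 0%, 10.5%, 0%, 6.42% and 6.46%, and both overlap with Stem. The usable EEC library was at 16.3%. The level of the gene itself did not pass the test in any of the 5 comparisons with Stem, with log2 fold changes from -0.33 in Tuft to 1.40 in AbsPro (edgeR, adjusted p = 0.322).

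In EEC, 60 short events could be tested, on 2 libraries. edgeR called none (0.0% of all 512), with a smallest adjusted p of 0.859, and 1 had an unadjusted p under 0.05, against 0.781% of all. DESeq2 called 1 (Dync1i2), against 5 of all events, and limma without weights 2 (Dync1i2 and Csnk1g3), against 11 of all. The quasi-binomial regression called none, and limma with weights no short event, against 1 of all. For Csnk1g3 the EEC libraries were at 100% and 0% and overlap with Stem, which was at 0% in all 3. Levels did not overlap in 7 short events (11.7%), against 8.2% of all, and 5 were apart (8.33%), 4 higher and 1 lower in EEC, against 4.69% of all. In EEC, 1 of the libraries had 89.7% of its reads assigned to no gene, and the share of values at 0% or 100% was the largest of the 6 cell types, as given above. Their part in these counts was not tested.

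The EEC events that stood apart belong to 4 genes. Ctage5, which helps load large cargo at the exits of the endoplasmic reticulum, has a microexon of 27 bases that is listed with 2 different upstream exons. Both EEC libraries were at 100% in both events, while Stem was at 62.4%, 90.3% and 38.1% in the first and at 65.7%, 67.5% and 68.1% in the second. App, the amyloid precursor protein, had an exon of 57 bases at 15.1%, 27.9% and 44.3% in Stem and at 100% and 62.9% in EEC, the former on 10 counts. Mbnl2 had the exon of 54 bases that corresponds to the one of Mbnl1. It was at 43.7%, 32.5% and 64.0% in Stem and at 0% and 30.5% in EEC, so that EEC was the lower group there, while for Mbnl1 the EEC table holds no event. The fourth gene is Dync1i2.

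**Figure D3:**
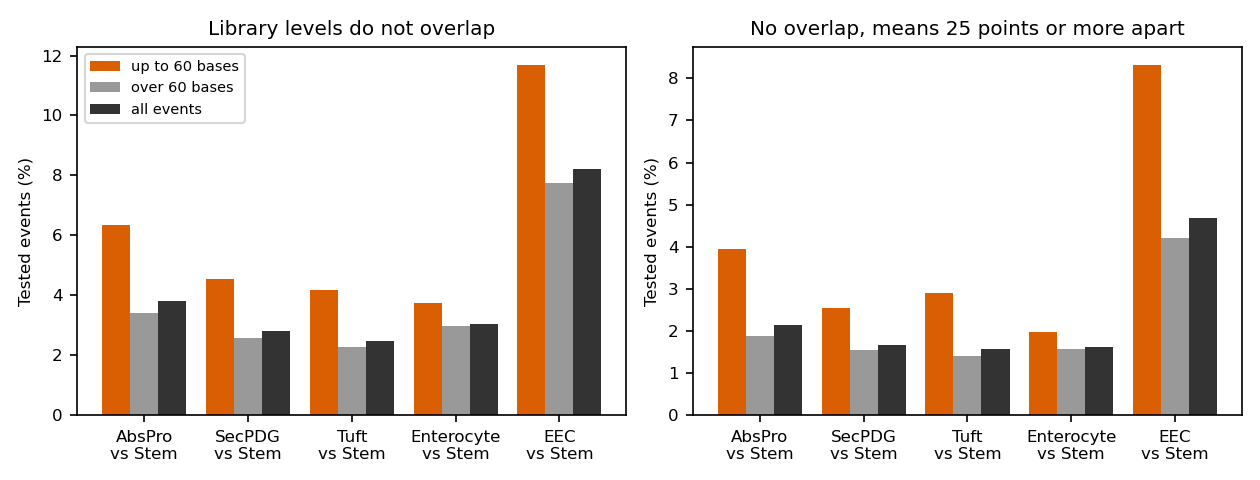
Share of tested events (y axis, %) whose library levels do not overlap with Stem (left) and whose means are also at least 25 points apart (right), for exons up to 60 bases (orange), over 60 bases (grey) and all events (black) in the 5 comparisons. The orange bars run from 3.73% to 11.7% on the left and from 1.97% to 8.33% on the right.

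Dync1i2, an intermediate chain of the motor dynein, was the only short exon that limma called when the 6 cell types were tested together. Its exon of 60 bases had no inclusion count among 369 Stem counts, which allows a share of up to 0.813% of the counts. In EEC it was at 100% and 53.3%, on 17 and 51 counts. AbsPro was at 0.846%, 0% and 0%, SecPDG at 0%, 2.58%, 0% and 11.1%, and Tuft at 0%, 0%, 0%, 1.46% and 3.89%. Enterocyte was at 8.74%, 6.47% and 6.83% in the libraries with 10 counts, and at 0% and 23.7% in the pair with 3 counts each. Every usable EEC value is thus above every other value of the exon, and the usable Enterocyte values lie above those of Stem (edgeR unadjusted p = 0.00334). It is the only short event of EEC with an unadjusted p under 0.05 in edgeR (0.0154).

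Events measured in all 6 cell types were tested together by limma's F test on the log2 ratio of inclusion to skipping counts of each library, with a pseudocount of 0.5, a test chosen after the comparisons with Stem had been seen. Of 468 events 57 were short, and limma called 8 events (1.71%), of which 1 was short, that of Dync1i2 (adjusted p = 0.000378). Short events with an unadjusted p under 0.05 numbered 12 (21.1%) against 71 of all (15.2%). The same events in edgeR gave no call, and 1 of its 7 events with an unadjusted p under 0.05 was short, again Dync1i2 (adjusted p = 0.516). Taken by cell type in limma, the exon of Dync1i2 was higher than in Stem in EEC (adjusted p = 3.88e-05) and in Enterocyte (adjusted p = 0.0239), and in AbsPro, SecPDG and Tuft the adjusted p was 0.509 to 0.775. With each library left out in turn, the adjusted p of the F test was 0.000137 to 0.0397, and the highest value is the one without the first EEC library of the list, which leaves 1 EEC library that is assumed to vary like the others. With a pseudocount of 0.1 it was 0.00503. In these EEC libraries the level of the gene itself had a log2 fold change of -0.22 against Stem (edgeR, adjusted p = 0.688).

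**Figure D4:**
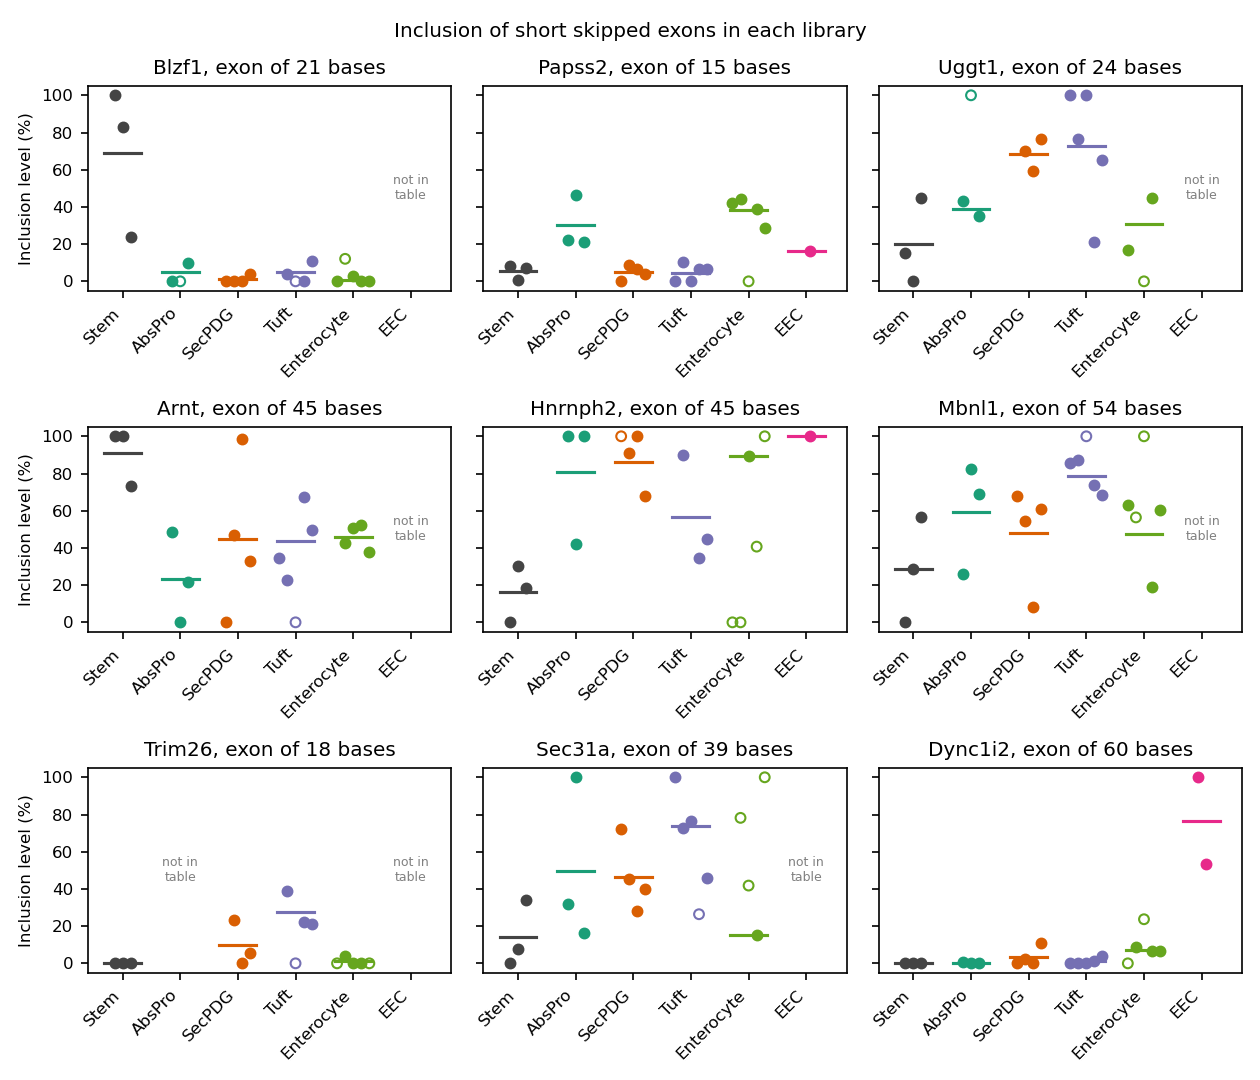
Inclusion level (y axis, %) of 9 short exons in every library of the 6 cell types, with the mean of the libraries that hold at least 10 counts as a line. Filled points are libraries with at least 10 counts and open points those with fewer, and a cell type whose table does not list the event is marked. The EEC libraries of Dync1i2 are at 100% and 53.3%, and the Blzf1 exon is at 23.6% to 100% in Stem and at most 10.9% in the filled points of the other cell types.

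AbsPro and SecPDG were also compared with each other, over the 2652 events tested among those that both tables list, 345 of them short. edgeR called no short event (0.0% of all called), with a smallest adjusted p of 1, and 2 short events had an unadjusted p under 0.05, against 0.377% of all. Levels did not overlap in 25 short events (7.25%), against 4.07% of all, and 15 were apart by 25 points (4.35%), 9 of them higher in SecPDG, against 2.11% of all. The Papss2 microexon was among them, 25.2 points lower in SecPDG. Ktn1 was the reverse, with 42.1% in AbsPro and 90.8% in SecPDG. Cbs had means of 8.18% in AbsPro and 55.5% in SecPDG, close to its Stem mean of 54.3%. In Arrb1, a regulator of receptor signalling, a microexon of 24 bases had means of 35.3% and 8.04%. The adjusted p was 1 for each of these genes in edgeR.

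Across the 5 comparisons with Stem, 62 combinations of an event and a comparison were apart by 25 points, and they belong to 45 events in 44 genes. Only 22 of the 62 rest on at least 3 libraries of each cell type, and 18 rest on 2 against 2. With at least 3 libraries of each cell type, 6 short events were apart in AbsPro (2.05% of 292, against 0.759% of all), 5 in SecPDG (1.37% of 364, against 0.849%), 7 in Tuft (1.84% of 380, against 0.72%) and 4 in Enterocyte (1.29% of 309, against 0.731%). In these counts the short exons of Hnrnph2, Arnt, Blzf1 and Ktn1 came up in more than 1 comparison. Of the 45 events, 13 were apart in at least 2 comparisons, 2 in 3 and 1 in 4. Since the comparisons share their Stem libraries, an event with unusual Stem values comes up in several of them.

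Blzf1, a golgin that shapes the Golgi apparatus, had the event that was apart in 4 comparisons. Its microexon of 21 bases was at 100%, 82.7% and 23.6% in Stem, on 40, 34 and 22 counts. AbsPro was at 0% and 9.62%, SecPDG at 0%, 0%, 0% and 4.16%, Tuft at 4.16%, 0% and 10.9% and Enterocyte at 0%, 2.86%, 0% and 0%. All usable libraries of these 4 cell types are therefore below the lowest Stem library, the EEC table does not list the event, and the Stem libraries themselves span most of the scale. The adjusted p of edgeR was 0.795, 0.712, 0.62 and 0.6 in these comparisons, and the weighted limma fit gave 0.0313 in Enterocyte. The level of the gene did not pass the test, with log2 fold changes from -0.22 in EEC to 0.78 in SecPDG (edgeR, adjusted p = 0.689 and 0.175).

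Arnt, the partner of the aryl hydrocarbon receptor and of Hif1a, had an exon of 45 bases at 100%, 100% and 73.3% in Stem. It was at 48.3%, 0% and 21.8% in AbsPro, at 34.8%, 22.8%, 67.3% and 49.8% in Tuft, and at 42.7%, 50.8%, 52.4% and 37.8% in Enterocyte. SecPDG overlapped with Stem, at 0%, 47.2%, 98.3% and 33.2%. Hnrnph2, an RNA-binding protein, had an exon of 45 bases in its 5′ UTR at 0%, 30.1% and 18.6% in Stem. It was at 100%, 41.9% and 100% in AbsPro, at 90.9%, 100% and 68.1% in SecPDG and at 89.9%, 34.8% and 44.7% in Tuft. The 2 exons stood apart in opposite directions. The adjusted p of edgeR was between 0.6 and 0.795 for both.

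Among the other events that were apart in 2 comparisons, Zfp384, a zinc finger factor, had an exon of 48 bases at 0% and 2.73% in the usable Stem libraries and at 91.5% and 100% in SecPDG and 100% and 100% in Enterocyte. The third Stem library held 9 counts and was at 100%. It was left out of the mean and the overlap for its low counts, but it entered the tests. Gpbp1, a promoter-binding protein, had an exon of 60 bases with means of 94.0% in Stem, 24.1% in SecPDG and 15.4% in Tuft. Ap2b1, a subunit of the clathrin adaptor AP-2, had an exon of 42 bases with means of 58.9% in Stem, 20.7% in SecPDG and 21.9% in Tuft. Brd8, a bromodomain protein, had an exon of 45 bases with means of 85.8% in Stem, 22.5% in SecPDG and 19.4% in Tuft. Suv420h1, a histone methyltransferase, had an exon of 60 bases in its 5′ UTR with means of 21.7% in Stem, 57.5% in AbsPro and 57.5% in Tuft. In Mgrn1, a ubiquitin ligase, an exon of 45 bases had means of 0% in Stem, 36.9% in AbsPro and 46.7% in Enterocyte. A Stem library of Mgrn1 with 5 counts was at 100% and was left out of the mean. The Enterocyte mean rests on libraries at 5.02% and 88.3%, with those under 10 counts at 57.9%, 0% and 0%. Apart in Enterocyte alone was a microexon of 24 bases in Mink1, a kinase, with means of 5.39% in Stem and 39.2% in Enterocyte.

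The exon length was a multiple of 3 in 36 of the 45 events, coding or not, against 444 of 857 tested short events (51.8%). For longer exons these shares were 116 of 196 (59.2%) and 3035 of 7262 (41.8%). Exons with a multiple of 3 bases were also more often at intermediate inclusion, as given above, and the part of this in the difference was not tested. Of the 45 events, 39 were coding, 5 were in 5′ UTRs and 8 had an exon of at most 27 bases. Host genes were counted in 4 lists, to be read against the 1.57% to 4.69% of all events that were apart by 25 points in a comparison. The lists do not hold Hnrnph2, Suv420h1, Zfp384 and Gpbp1, which were apart as given above. Among 69 splicing and RNA-binding genes, 22 to 30 short events were tested in AbsPro, SecPDG, Tuft and Enterocyte and 7 in EEC, and 1, 0, 1, 0 and 1 of them were apart, in Luc7l2, Mbnl1 and Mbnl2. Among 73 genes of the cytoskeleton and junctions, 3 to 21 were tested per comparison and 1 was apart, in Mark3 in SecPDG. Among 83 genes of membrane traffic, 2 to 15 were tested, and Vps39 in AbsPro, Ap2b1 in SecPDG and Tuft, Sec31a in Tuft and Dync1i2 in EEC were apart. Among 73 genes of chromatin and transcription, 0 to 13 were tested, and Arnt and Brd8 were apart. edgeR called none in any list, and 1 event of the RNA-binding list, 3 of membrane traffic and 1 of chromatin had an unadjusted p under 0.05 over the 5 comparisons.

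Microexons of genes known to carry them were nearly all at 0% in Stem. Of 56 such genes, 10 had an event with an exon of at most 27 bases in the tables, and 6 were tested in 10 combinations of event and comparison. edgeR called none, none had an unadjusted p under 0.05 and none was apart. The exception in Stem was Mast2, a kinase, with a microexon of 21 bases at 0% and 35.5% in the usable libraries. Ptprk and Ppfia1 were at 0% in both usable Stem libraries. Sptan1, a spectrin, had a microexon of 15 bases at 0% in the 3 Stem libraries, on 61 to 74 counts. It was at 0%, 68.0%, 0% and 5.15% in the usable Tuft libraries. Abi1, a regulator of actin branching, had a microexon of 15 bases at 0% in all Stem libraries, at 2.56%, 0% and 0% in AbsPro, and in Tuft at 0%, 29.3%, 0% and 2.42%. Src, the tyrosine kinase, had a microexon of 18 bases at 0% in Stem and at 0%, 2.18%, 0% and 0% in SecPDG, so that the form without it was nearly all that was counted. Of 5 genes listed from the study's text on splicing (Spen, Ctnnd1, Itga6, Eif4a2 and Cbfa2t2), Ctnnd1 alone had a short event. The study describes a C-terminal domain of Ctnnd1 that Stem encodes more often than progenitors do. This event had no inclusion count in Stem and so is a different part. This microexon of 18 bases of p120 catenin had no inclusion count among 48 Stem counts, which allows a share of up to 6.25% of the counts, and the usable Tuft libraries were at 0%, 0% and 7.8%.

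The levels of 45 RNA-binding genes known to act on short exons were compared with Stem by edgeR over 22781 genes, at an adjusted p under 0.01. No gene of the list passed in AbsPro, where 0.342% of all genes were called higher and 0.0219% lower. An unadjusted p under 0.05 was found for 3 of the 45, and by an adjusted p under 0.05 and by DESeq2 the count was also 0. In SecPDG 1 was lower, Celf5 (log2 fold change -2.77, adjusted p = 0.00967), and none was higher, against 0.689% and 2.44% of all genes. In Tuft 1 was higher, Rbfox3 (adjusted p = 0.00462), and none was lower, against 6.01% and 2.03% of all. Rbfox3 held 0, 0 and 2.70 normalized counts in Stem and 122, 130, 35.4, 65.6 and 22.6 in Tuft. Neither Celf5 nor Rbfox3 kept its call when each library was left out in turn.

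In Enterocyte 16 of the 45 genes passed, 4 higher and 12 lower, against 13.8% and 7.93% of all genes. Ptbp1, which represses many short exons, fell by 1.87 on the log2 scale (adjusted p = 0.000255). Its Stem libraries held 5700, 6060 and 5600 normalized counts and the Enterocyte libraries 1460, 1450, 662, 2940 and 1390, with no overlap. Mbnl1 fell by 1.37 and Rbm38 fell by 2.00. Raver1, a partner of Ptbp1, fell by 1.95. In the same cells Celf3, Celf6, Elavl4 and Rbfox3 were the 4 higher genes. Called without each library in turn were Elavl1, Khdrbs1, Mbnl1, Ptbp1, Raver1, Rbm38 and Rbfox3.

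In EEC 18 of the 45 genes passed, 10 higher and 8 lower, against 14% and 7.47% of all genes. Celf3 rose by 7.21 on the log2 scale, from 48.2, 24.3 and 24.9 normalized counts in Stem to 2300 and 7310. Elavl3, a neuronal RNA-binding protein, held 3.06, 0 and 4.72 in Stem and 439 and 529 in EEC. Celf2 rose by 2.82, to 973 in both libraries. Mbnl3 fell by 4.91, from 954, 1340 and 1480 to 32.5 and 49.7. Srrm4, the main activator of neuronal microexons, rose by 4.75, from 22.9, 25.6 and 2.02 to 729 and 182. Ptbp1 fell by 1.95 and Mbnl1 fell by 2.10. Esrp1, which sets epithelial splicing, fell by 2.01. Of the 18, the genes called without each library in turn were Celf2, Celf3, Elavl3, Hnrnpf, Mbnl1, Mbnl3 and Rbfox3, and Srrm4 was not among them.

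Several of the higher genes were lowest in the Enterocyte library with the fewest reads on olfactory receptor genes. Rbfox3 was at 212, 133, 158, 47.9 and 63.7 normalized counts in the Enterocyte libraries, in which the olfactory receptor genes summed to 2970, 2310, 3020, 592 and 1020 CPM. Srrm4 was at 233, 195, 259, 90.1 and 112 in the same libraries, and Elavl3 at 71.7, 99.8, 113, 21.7 and 62.3. Celf3 was at 214, 166, 164, 87.8 and 183, and Celf6, Elavl4, Nova2 and Celf2 were also lowest in the fourth library. In EEC, Srrm4 was at 729 in the library with 5550 CPM on olfactory receptor genes and at 182 in that with 503. Rbfox3, Elavl4 and Raver2 were also higher in the former. Celf3, Celf6, Elavl3, Khdrbs3 and Nova2 were higher in the latter, with Celf3 at 7310 and Elavl3 at 529, and Celf2 was equal in both. The lower genes went the other way. In Enterocyte all but Hnrnpm were highest in the fourth library, with Ptbp1 at 1460, 1450, 662, 2940 and 1390. In EEC every lower gene was lower in the library with 5550 CPM, with Ptbp1 at 701 against 2290 and Esrp1 at 443 against 2040. The part of such reads in the levels of the higher and lower genes was not tested. The median log2 fold change over all genes was 0.84 in Tuft, 1.16 in Enterocyte and 0.70 in EEC with TMM scaling, and 1.07, 1.79 and 1.45 with DESeq2 size factors, with all called regulators on the same side of 0 under both. Over the 13188 genes with a mean of at least 50 normalized counts, the medians in Tuft, Enterocyte and EEC were -0.09, -0.30 and -0.33 with TMM scaling. With DESeq2 size factors these were 0.11, 0.23 and 0.35, so that their sign depends on the scaling. The medians of the 45 genes were -0.13, -0.25, 0.20, -0.59 and -0.04 in AbsPro, SecPDG, Tuft, Enterocyte and EEC.

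**Figure D5:**
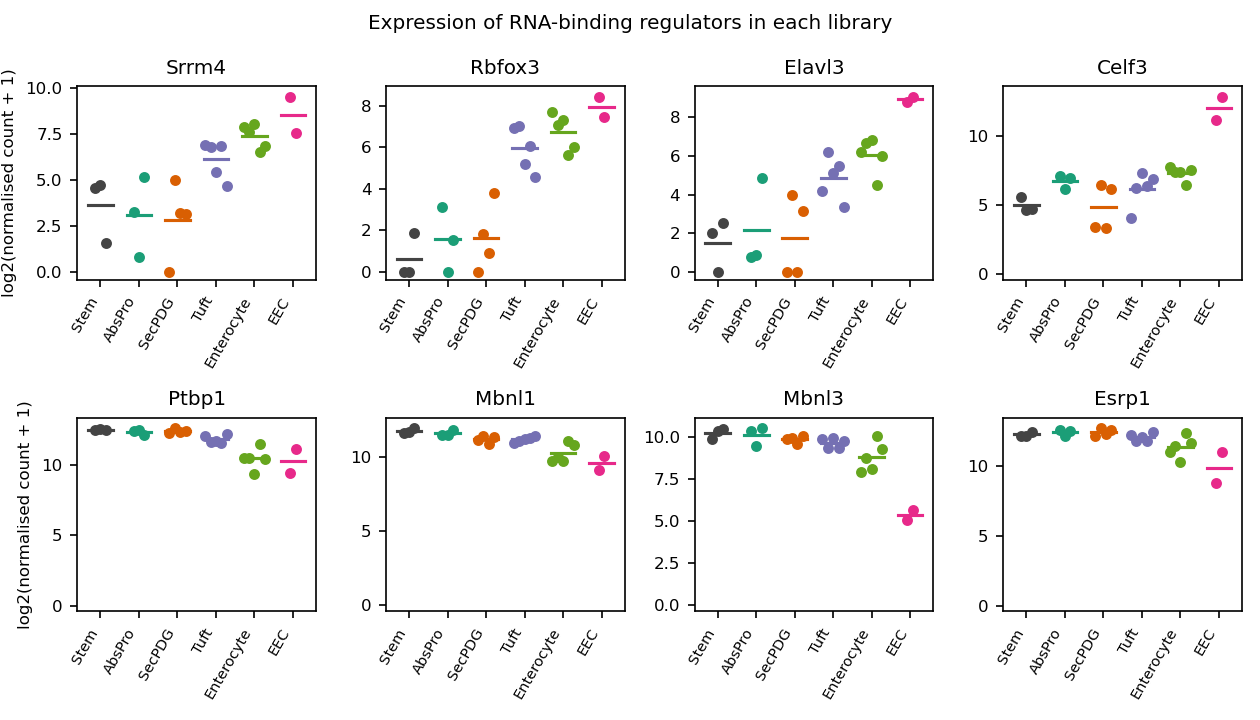
Level of 8 RNA-binding regulators (y axis, log2 of normalized counts plus 1) in every library of the 6 cell types, with the mean of the log2 values as a line. Celf3 and Elavl3 stand highest in EEC, at 2300 and 7310 and at 439 and 529 normalized counts, and Mbnl3 lowest there, at 32.5 and 49.7.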

How the data were processed

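RNA of 22 libraries of sorted mouse colon cells was analysed. The authors aligned reads to mm10 with STAR 2.5.2a and made the skipped exon tables with rMATS, 2 cell types at a time. As deposited, these tables hold other values than gene counts, namely lists of inclusion and skipping counts per library from junction and exon reads, with effective lengths. The columns with the authors' p-values, FDR and inclusion differences were not used, nor were the MAJIQ and DaPars tables. The deposited gene counts were made by the authors with HTSeq 0.6.1p1 without regard to strand and are not normalized. Reads on no gene, 40.9% to 89.7% of a library, stayed out of library sizes and tests. Libraries stand unnamed in the splicing tables, and the place in the list was read as the library number, which cannot be tied to the gene counts. No column of values per sample was left without a sample (0 columns).

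An event was tested when at least 2 libraries of each cell type held at least 10 counts. Its libraries with fewer counts stayed in the fits. All events of a table entered a single edgeR 4.0.16 fit (R 4.3.3) with library, form and form by cell type as terms and p-values were adjusted by Benjamini-Hochberg over all of them. For SecPDG against AbsPro the 3 cell types were fitted together. Alternatives were DESeq2 1.42.0, a quasi-binomial regression and limma 3.58.1. Genes were fitted in a single edgeR model over the 22 libraries after filterByExpr, with TMM. Normalized counts are counts over the library size times its TMM factor, on the scale of the mean library. Summaries and figures were made with pandas 2.3.3, numpy 2.4.6 and matplotlib 3.10.9. Annotation and sequences come from GENCODE M21 on GRCm38. No intron sequence was used. Single values of a few genes are not reported here.

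The rule for named events takes called events first, then short events of genes the study names and microexons of 56 listed genes. As edgeR called none, events apart by 25 points were named, in at least 2 comparisons, with at most 27 bases or by their values, which is a choice made after the values were seen. The members, lists and tests were chosen with earlier results of these data known. The limma test over the 6 cell types and the counts with 3 libraries were added after the values were seen.

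The event test was tested on simulated data with events of the real tables. At a log2 odds ratio of 3 it recovered 44% in AbsPro, 56% in Enterocyte and 61% in EEC, and at 5 it recovered 99% in each, with 3, 6 and 2 false calls. The simulated libraries were drawn with a smaller spread than the real ones. In the real ones the median SD was 21.7 to 41.4 points for short events with a mean of 20% to 80%. The recovery therefore does not describe the test on these data. It also does not carry over to the events described as apart, where fitted ratios beyond 5 had standard errors of 2.34 to 6.69 and none was called. Intervals and limits from a count of 0 (3 counts) cover counting error only. Replicate numbers of the gene counts were checked for pairing. Deviations of libraries with the same number had a median correlation of 0.001 over 44 pairs, against 0.02 over 154 pairs with different numbers, so the numbers were not taken as pairs.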

Additional observations from a re-analysis of the deposited data

Results flagged for a closer look

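Within groups of 4 to 10 libraries, the highest or lowest library was compared with the others by Dixon's ratio for the described events and the called regulators. Of 30 groups so examined 3 were set aside by it, and chance sets aside about 1 group in 20.

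The Blzf1 microexon of 21 bases had a highest SecPDG library at 4.16%, with the other 3 at 0%, and a highest Enterocyte library at 2.86%, with the other 3 usable libraries at 0%. With the others tied at 0%, the ratio sets aside any value above 0%, so both Blzf1 flags were fixed by the ties. All of these Blzf1 values are below the lowest Stem library. Celf6 had a lowest Enterocyte library at 54.7 normalized counts, with the others at 98.7 to 116. That library was also the lowest of the Enterocyte group in reads on olfactory receptor genes, at 592 CPM.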

How the results depend on the processing

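The median short event held 0 to 36 counts in a library, and the EEC comparison rests on 2 libraries. What keeps events from being called was not tested. The count of 0 short exons called by edgeR held in all 5 comparisons with Stem with other minimum counts, an adjusted p under 0.01, a single event per exon and each library left out in turn (0 to 0 in each). Between SecPDG and AbsPro it held with a minimum of 20 counts, an adjusted p under 0.01, these cell types fitted alone and each library left out (0 to 0). Other tools gave 1 short exon by DESeq2 in SecPDG and 1 in EEC, 2 by the quasi-binomial regression in Tuft, 2 by limma in EEC, and 1 in Tuft and 13 in Enterocyte by weighted limma. Over all events, in the same order, they called 1, 5, 4, 11, 22 and 168. Over the 6 cell types, the 1 exon called by limma became 0 with edgeR, 0 with a minimum of 20 counts, where 40 short events were left and Dync1i2 was not called, and 3 with a pseudocount of 1, and was 1 to 2 with each library left out. With a minimum of 20 counts, the exons apart by 25 points became 10 in Tuft (2.42%, against 1.3% of all events). In Enterocyte they became 5 (1.68%, against 1.08%) and in EEC 3 (6.67%, against 3.61%). Of the genes described, Arnt, Trim26, Gpbp1, Dync1i2, Zfp384, Exog, Cbs, App, Mink1 and Mgrn1 were then no longer apart in any comparison. Hnrnph2, Ap2b1, Brd8 and Suv420h1 were apart in fewer comparisons than before. Calml4, Kat6b, Kcnq1, Senp6, Dopey1 and Eif4h came in. With at least 3 libraries of each cell type the counts became 6 in AbsPro, 5 in SecPDG, 7 in Tuft and 4 in Enterocyte, with the shares given above. None of 604 inclusion differences and none of 474 log2 ratios of the events that were apart took the other sign under an alternative, and 4 log2 ratios passed the threshold, those of Dync1i2 in EEC and of Blzf1 and Zfp384 in Enterocyte. The choice of these events by direction fixes much of this.

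The regulators called became 4 in SecPDG, 12 in Tuft and 26 in Enterocyte with DESeq2's test, 2, 8 and 27 at an adjusted p under 0.05, 3 in Tuft with DESeq2 size factors and 2 in Tuft without a filter on low counts. With each library left out, AbsPro had 0 to 0, SecPDG 0 to 2, Tuft 0 to 6, Enterocyte 9 to 27 and EEC 10 to 26. The highest count in Enterocyte came without the first EEC library, which shares the fit, and the lowest without Enterocyte library 2 or 3. In EEC the lowest came without its first library. The causes were not tested.

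With the replicate number as a block, 0, 1, 3, 20 and 16 regulators were called in AbsPro, SecPDG, Tuft, Enterocyte and EEC. The labels do not say that equal numbers share a mouse or a sort, and the numbers did not pair the libraries. The splicing tables carry no library numbers, so no paired analysis of the events was possible.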
